A study of Mus musculus with 20 samples.

Results

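Transcripts of glucose production and glycogen turnover were followed in the livers of obese, diabetic mice given benzbromarone (BBR), with or without hepatic knockdown of PPARγ. The 10 genes described here were selected by symbol from the 22298 genes listed for each library, and all 10 passed the filter on low counts. Fbp2 passed it only through the mice given BBR without knockdown. They are Pck1, G6pc, Slc37a4, Fbp1, Fbp2 and Pcx of gluconeogenesis and Gys2, Pygl, Ppp1r3b and Ppp1r3c of glycogen turnover. Gluconeogenesis runs from pyruvate through oxaloacetate (pyruvate carboxylase, Pcx) and phosphoenolpyruvate (Pck1) to fructose 6-phosphate (Fbp1) and ends when glucose 6-phosphate is carried into the endoplasmic reticulum by Slc37a4 and split by G6pc. Glycogen is built by Gys2 and degraded by Pygl, and Ppp1r3b and Ppp1r3c bring protein phosphatase 1 to glycogen, where it activates synthesis and restrains breakdown. In the fasting liver the first pathway is driven by glucagon and glucocorticoids and held back by insulin.

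In GENCODE M21 (GRCm38) all 10 are protein-coding genes. On the plus strand lie Pck1 at chr2:173153048-173159273, G6pc at chr11:101367561-101377903, Slc37a4 at chr9:44396852-44402968, Pcx at chr19:4510472-4621752 and Ppp1r3b at chr8:35375739-35388139. On the minus strand lie Fbp1 at chr13:62864753-62888282, Fbp2 at chr13:62836877-62858422, Gys2 at chr6:142422613-142473109, Pygl at chr12:70190811-70231488 and Ppp1r3c at chr19:36731731-36736653.

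Livers of 20 male Lepr db/db mice, a leptin receptor mutant that becomes obese and hyperglycaemic, were sequenced, and all of these mice had AAV8 injected into the tail vein when they were 5 weeks old. The vector carried a non-targeting shRNA in the groups Vec and Vec+BBR, and shRNAs against PPARγ in the groups shRNA and shRNA+BBR, with 5 sequenced mice in each group. BBR, a uricosuric drug, was given by gavage at 25 mg per kg once daily for 4 weeks in the +BBR groups and the vehicle CMC-Na in the others, and liver was taken after a 6 h fast. AAV8 given this way reaches hepatocytes above all, PPARγ of other liver cells was not measured apart, and no lean or uninjected mice are among these groups. Each library held the polyadenylated RNA of 1 mouse, so p-values measure the spread among these mice.

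Total counts per library ran from 17432904 to 25024099. A count of 3, taken as the floor, corresponded to 0.12 to 0.172 CPM, the count scaled to library size. Pparg, the targeted gene, had 16.4 to 35.9 CPM in Vec and 3.24 to 7.31 CPM in shRNA mice (log2 fold change -2.12, edgeR adjusted p = 4.47e-05). With BBR it had 28 to 38.3 CPM in Vec+BBR and 7.19 to 21.8 CPM in shRNA+BBR mice (log2 fold change -1.20, edgeR adjusted p = 0.00843), and within the shRNA groups it was higher with BBR than without (log2 fold change 1.28, adjusted p = 0.00773). Between Vec and Vec+BBR mice Pparg was not called (log2 fold change 0.36, edgeR adjusted p = 0.372). The difference between these 2 BBR effects did not pass (0.92, edgeR adjusted p = 0.208). All 9 hepatocyte markers examined, Alb among them, had counts in every library.

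The stretches upstream of 4 of the genes are shown because Pck1, G6pc and Slc37a4 were the 3 that fell with BBR in Vec mice, and Ppp1r3c was higher with knockdown both without and with BBR. RefSeq promoter windows of 300 bases (GRCm38.p6, 250 bases before to 50 after a start) were found for 8 of the 10 genes, and Gys2 and Ppp1r3b were not matched. The bases before both the RefSeq and the GENCODE M21 start are given 5′ to 3′, for Pck1 from chr2:173152823-173153047 (plus strand), G6pc from chr11:101367466-101367560 (plus strand), Slc37a4 from chr9:44396696-44396851 (plus strand) and Ppp1r3c from chr19:36736654-36736854 (minus strand). Capitals mark matches to the motifs searched.
Pck1: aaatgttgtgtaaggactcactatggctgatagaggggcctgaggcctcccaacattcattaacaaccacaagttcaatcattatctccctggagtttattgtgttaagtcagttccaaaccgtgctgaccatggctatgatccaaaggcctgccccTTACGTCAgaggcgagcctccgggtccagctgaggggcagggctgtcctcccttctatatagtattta
G6pc: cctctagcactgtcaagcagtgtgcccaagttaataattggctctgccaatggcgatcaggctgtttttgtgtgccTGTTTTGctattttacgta
Slc37a4: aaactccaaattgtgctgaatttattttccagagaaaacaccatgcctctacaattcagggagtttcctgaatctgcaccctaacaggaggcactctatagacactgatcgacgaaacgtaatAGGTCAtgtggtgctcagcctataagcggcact
Ppp1r3c: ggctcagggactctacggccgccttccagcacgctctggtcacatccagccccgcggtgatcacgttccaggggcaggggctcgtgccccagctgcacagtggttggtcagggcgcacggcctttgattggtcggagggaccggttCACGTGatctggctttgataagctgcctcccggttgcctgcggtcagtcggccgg
The capitals in Pck1 are TTACGTCA, a form of the cAMP response element, whose first base lies 93 bases before the RefSeq start, and 0.499% of all 32851 promoter windows hold this run on either strand. In G6pc they are TGTTTTG, a core found in insulin response sequences, which 6.28% of windows hold and which Fbp2 holds too. Slc37a4 has the nuclear receptor core AGGTCA (16.3% of windows), which is also in windows of G6pc, Pygl and Pcx. Ppp1r3c has the E-box CACGTG (7.15% of windows), as have Fbp2 and Pcx. Neither the 8-letter TGACGTCA (1.79% of windows), nor TGTTTAC (3.65%), nor a pair of AGGTCA cores spaced by 1 base (AGGTCANAGGTCA, 0.0396%) was in any window of these genes.

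On the deposited FPKM, which is scaled for transcript length and so allows levels of different genes to be compared, the 10 genes spanned several orders of magnitude. Pck1 had the highest mean over the 20 mice, 1133 FPKM, followed by Fbp1 with 848 FPKM, and Pck1 was above Fbp1 in 16 of 20 mice. Fbp1 was above G6pc in all 20 mice, and G6pc (234 FPKM) and Pcx (216 FPKM) did not differ beyond their spread, G6pc being higher in 12 of 20 mice. By group, G6pc was above Pcx in 4 of 5 mice of Vec, shRNA and shRNA+BBR and in 0 of 5 Vec+BBR mice. Pygl (155 FPKM) and Slc37a4 (146 FPKM) likewise overlapped, with Pygl higher in 14 of 20 mice but in only 1 of the 5 Vec mice. Gys2 followed with 94.4 FPKM, then Ppp1r3b with 67.2 FPKM, whose ranges overlapped although Gys2 was higher in 18 of 20 mice. Ppp1r3c, at 15.2 FPKM, was below Ppp1r3b in all 20 mice. Fbp2, the muscle-type fructose bisphosphatase, had a mean of 0.242 FPKM and stood last in every mouse.

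**Figure D1:**
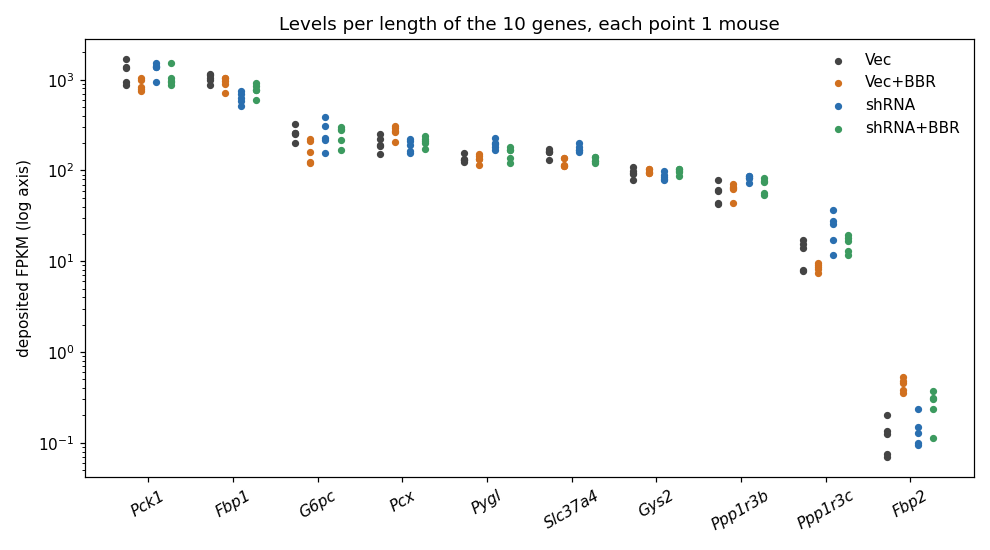
Deposited FPKM of the 10 genes on a log axis, ordered by mean over all mice, with each point 1 mouse and colours for the 4 groups. Pck1 and Fbp1 lie highest, with means of 1133 and 848 FPKM, and Fbp2 lies lowest at 0.242 FPKM.

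BBR against vehicle in mice with the control vector asks how the drug changed the liver of db/db mice with PPARγ intact. Transcripts of 3 genes of glucose output were lower in Vec+BBR than in Vec mice, namely Pck1, G6pc and Slc37a4, by 28.7% to 41.2%, and Fbp2 was higher from a very low level. The other 6 genes, among them all 4 of glycogen turnover, did not pass the threshold (adjusted p under 0.05 in edgeR, over 12342 genes). Of all genes tested 15.5% were called, 7.88% lower and 7.58% higher, against 3 and 1 of the 10. That 1 was Fbp2, which passed the filter on low counts only through the Vec+BBR group. The groups did not overlap for G6pc, Slc37a4 and Fbp2, which was so for 8.94% of all genes. The median log2 fold change was -0.20 over the 10 genes and -0.01 over all genes tested.

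Pck1, phosphoenolpyruvate carboxykinase, had 3935, 4084, 2489, 4529 and 2577 CPM in the 5 Vec mice. In the Vec+BBR mice it had 2299, 2286, 1993, 2575 and 2075 CPM. Vec mice 3 and 5 were low, and mouse 3 lay within the Vec+BBR range, so that the groups overlapped. The means were 3523 ± 930 CPM in Vec and 2246 ± 227 CPM in Vec+BBR mice (SD, n = 5). The fitted log2 fold change was -0.65 (standard error 0.17, adjusted p = 0.0145), and it stayed past the threshold in all 17 alternative analyses (adjusted p from 0.00211 to 0.0445). G6pc, the catalytic subunit of glucose 6-phosphatase, had 665, 701, 516, 621 and 808 CPM in Vec mice. With BBR the values were 304, 262, 379, 507 and 496 CPM. The highest Vec+BBR mouse lay just under the lowest Vec mouse. The means were 662 ± 107 CPM in Vec and 390 ± 111 CPM in Vec+BBR mice (SD, n = 5). Its log2 fold change was -0.77 (standard error 0.22, adjusted p = 0.0234), and the call was lost without Vec replicate 2 (adjusted p = 0.0512) and without Vec+BBR replicate 2 (adjusted p = 0.0662), in a range from 0.00483 to 0.0662. Slc37a4, the glucose 6-phosphate transporter, had 364, 413, 289, 327 and 337 CPM in Vec mice and 244, 203, 283, 223 and 281 CPM in Vec+BBR mice. Every Vec+BBR mouse was below every Vec mouse, by a small margin. The means were 346 ± 46.2 CPM in Vec and 247 ± 35.1 CPM in Vec+BBR mice (SD, n = 5). Its fold change was -0.49 on the log2 scale (standard error 0.10, adjusted p = 0.00302), past the threshold in all 17 alternatives (adjusted p from 6.81e-05 to 0.0244).

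Fbp2 was counted 2, 3, 6, 2 and 4 times in the Vec libraries and 16, 10, 10, 15 and 13 times in the Vec+BBR libraries. Of the Vec mice, 3 were at or under the floor, whereas all Vec+BBR mice were above every Vec mouse. The summed counts were 64 against 17, a ratio per total count of 3.61 with an exact 95% interval from 2.09 to 6.57 that covers counting error only, and the fitted log2 fold change was 1.69 (standard error 0.36, adjusted p = 0.00342). The highest count in a library was 6 in Vec, 7 in shRNA and 10 in shRNA+BBR, and the lowest in Vec+BBR was 10. Fbp2 thus passed the filter (minimum count 10) only through Vec+BBR, the group where it was high. Its call and the separation of the groups are therefore a description and not support for a change. Fbp2 took 0.0109% of the counts of Fbp1 and Fbp2 together in Vec and 0.0437% in Vec+BBR mice. The pair are neighbouring paralogs on chromosome 13. The deposited counts of both were whole numbers in every library, and whether shared reads were divided between them was not tested. Of 8 markers of skeletal muscle, where Fbp2 is the usual isoform, Ckm was at 0 in 19 of 20 libraries and Myh4 and Tnnt3 in 18, whereas Acta1 was at 0 in 5 and Mylpf in 0. Summed over the 8 genes, Vec+BBR mouse 3 had 283 counts and the other 19 libraries 3 to 18. That mouse had 10 counts of Fbp2, and without it the log2 fold change of Fbp2 was 1.75, given as a description only for the same reason. The part of muscle RNA in the counts of Fbp2 was not tested.

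Among the genes that did not pass, Ppp1r3c had the largest difference. It had 22.8, 25, 40.8, 46.7 and 42.4 CPM in Vec mice and 24.6, 17.9, 24.6, 21.2 and 25.9 CPM in Vec+BBR mice. Vec mice 1 and 2 lay within the Vec+BBR range. Its log2 fold change was -0.64 (standard error 0.25, adjusted p = 0.0803), and it passed in 3 of 17 alternatives, namely with DESeq2 (adjusted p = 0.046), with the replicate number as a block (0.0382) and without Vec replicate 1 (0.0482), within a range from 0.0382 to 0.178. Fbp1, the liver fructose bisphosphatase, had a log2 fold change of -0.28 (adjusted p = 0.149). For Pcx, which makes oxaloacetate, it was 0.28 (adjusted p = 0.121), and without Vec replicate 3 Pcx passed at 0.37 (adjusted p = 0.033, range over alternatives 0.033 to 0.323). Gys2, Pygl and Ppp1r3b had 95% intervals on the log2 scale from -0.28 to 0.12, from -0.34 to 0.09 and from -0.32 to 0.28.

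**Figure D2:**
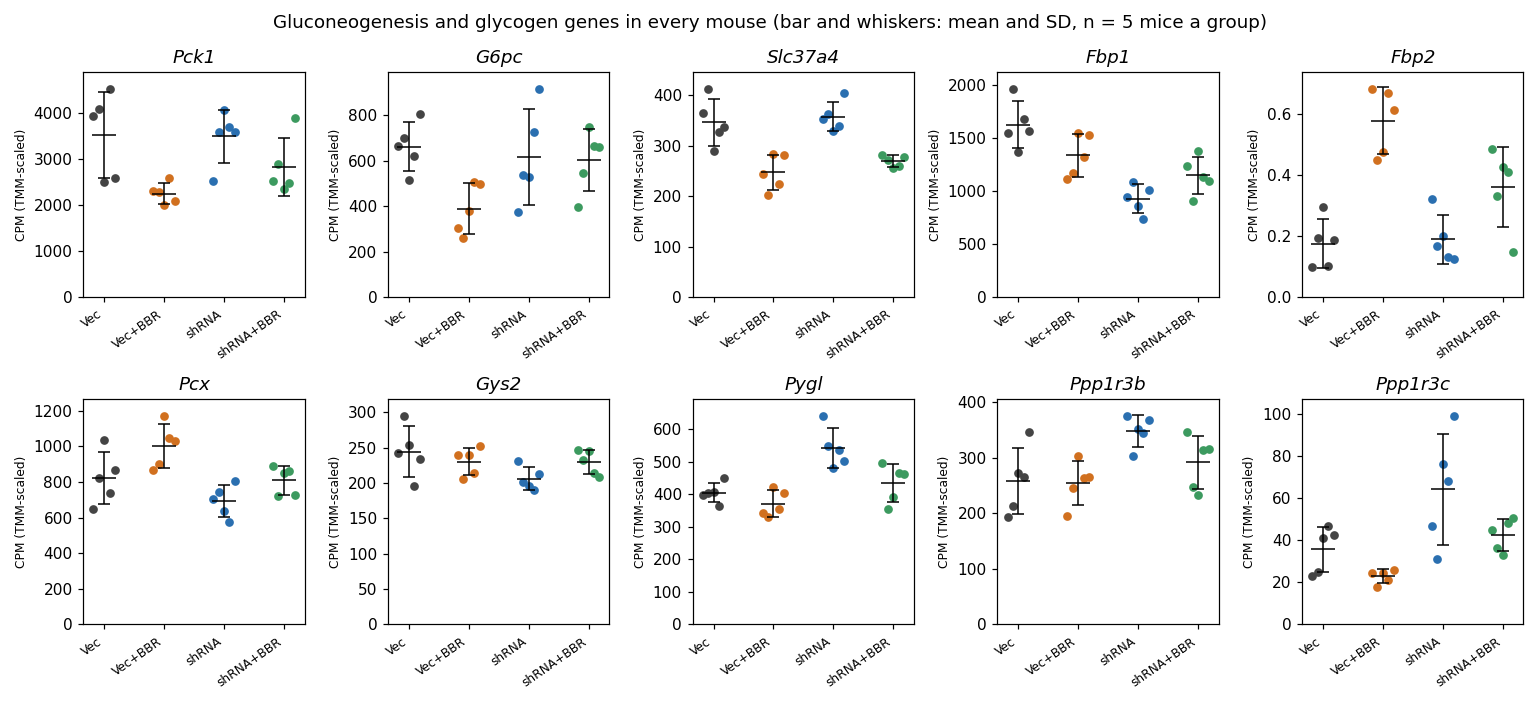
TMM-scaled CPM of each gene in each mouse by group, with axes from 0, horizontal marks at the mean and whiskers of 1 SD (n = 5 mice a group). The Vec+BBR mice lie below all Vec mice for G6pc and Slc37a4, the shRNA mice below all Vec mice for Fbp1 and above them for Pygl.

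Other hepatocyte transcripts moved in the same comparison. The summed level of 9 hepatocyte markers was 129288 to 162122 CPM in Vec and 100033 to 140381 CPM in Vec+BBR mice. Of these Serpina1a (-1.12), Cps1 (-1.10) and Fgb (-0.48) were lower, and the others were not called. The summed periportal list, from the zone in which gluconeogenesis is strongest, was 7316 to 14704 CPM in Vec and 6667 to 7949 CPM in Vec+BBR mice, with 4 of its 9 genes lower and 1 higher. The pericentral list was 9719 to 18360 CPM in Vec and 6536 to 8856 CPM in Vec+BBR mice, with 8 of 10 genes lower. Vec mice 3 and 5, the 2 lowest for Pck1, were also the 2 lowest Vec mice for both lists. Of 8 stellate cell markers 4 were higher, their sum being 157 to 305 CPM in Vec and 325 to 371 CPM in Vec+BBR mice. Of 8 endothelial markers 4 were higher (sum 91.3 to 121 CPM against 116 to 158 CPM). The sum of 5 cholangiocyte markers was 24 to 45.3 CPM in Vec and 50.3 to 96.6 CPM in Vec+BBR mice. Most of that sum was Spp1, with means of 30.5 CPM in Vec and 61.1 CPM in Vec+BBR mice. Spp1 was called higher, and the other 4 were not called. Of 8 macrophage markers Marco (-3.03) and Timd4 (-0.78) were lower and Cd68 (0.64) higher. Of the 2 adipocyte markers tested of 6 listed, Cfd (3.22) was higher and Car3 (0.17) was not called. Cfd had only 0 to 0.785 CPM in Vec mice, so the size of its fold change is uncertain. Of 4 clock genes tested from a first list Cry1 (-0.57) was lower, and of 9 from a second list Per3 (-0.48). The part of these shifts in the levels of Pck1, G6pc and Slc37a4 was not tested, and in bulk tissue fewer cells of a type and less RNA per cell cannot be told apart. On the deposited FPKM, which is not TMM-scaled, the median gene was shifted by 0.13 on the log2 scale between these groups. There the log2 ratios of group means were -0.51 for Pck1, -0.63 for G6pc and -0.35 for Slc37a4 before that shift is taken off, and the ranges of G6pc and Slc37a4 overlapped.

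Knockdown of PPARγ without BBR, shRNA against Vec, asks what hepatic PPARγ sets in the untreated db/db liver. Fbp1 was lower by 43%, whereas the glycogen phosphorylase Pygl and the phosphatase targeting subunits Ppp1r3b and Ppp1r3c were higher by 33.8%, 35.4% and 80.5%. Pck1 and the terminal steps G6pc and Slc37a4 did not pass, with log2 fold changes of -0.01, -0.10 and 0.05. Over all genes 13.2% were called, 7.91% lower and 5.28% higher, against 1 and 3 of the 10. The groups did not overlap for Fbp1 and Pygl, as for 8.96% of all genes. The median log2 fold change was 0.02 over the 10 genes and -0.01 over all.

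Fbp1 had 1547, 1963, 1367, 1680 and 1565 CPM in Vec mice and 941, 1086, 856, 732 and 1012 CPM in shRNA mice. All shRNA mice lay well under the lowest Vec mouse. The means were 1625 ± 220 CPM in Vec and 925 ± 138 CPM in shRNA mice (SD, n = 5). On the log2 scale the fold change was -0.81 (standard error 0.13, adjusted p = 0.00035), past the threshold in all 17 alternatives with fold changes from -0.88 to -0.73. Pygl had 397, 405, 407, 365 and 450 CPM in Vec mice and 641, 547, 479, 536 and 503 CPM in shRNA mice. The lowest shRNA mouse was above the highest Vec mouse. Its log2 fold change was 0.42 (standard error 0.10, adjusted p = 0.0103), also past the threshold in all 17 alternatives (adjusted p from 0.000963 to 0.036).

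Ppp1r3b, the main liver targeting subunit, had 194, 214, 272, 265 and 346 CPM in Vec mice and 376, 303, 353, 345 and 369 CPM in shRNA mice. Vec mouse 5 reached into the shRNA range. On the log2 scale it was higher by 0.44 (standard error 0.14, adjusted p = 0.0487), so close to the threshold that the call was lost in 10 of 17 alternatives (adjusted p from 0.0105 to 0.127), including those without Vec replicate 1, 2, 3 or 4 and without shRNA replicate 1, 3, 4 or 5. Ppp1r3c had 46.7, 30.8, 76, 68.2 and 99.1 CPM in shRNA mice, against 22.8 to 46.7 CPM in Vec mice. Mouse 2 lay inside the Vec range and mouse 1 at its upper end, and the spread among shRNA mice was wide (coefficient of variation 41.2%). Its log2 fold change was 0.85 (standard error 0.24, adjusted p = 0.0243), and the call was lost in a fit of the 2 groups alone (adjusted p = 0.0805), without Vec replicate 1 or 2 and without shRNA replicate 3, 4 or 5, with adjusted p from 0.00382 to 0.0826 over the alternatives.

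Gys2, glycogen synthase, had 195 to 295 CPM in Vec and 190 to 231 CPM in shRNA mice (log2 fold change -0.24, adjusted p = 0.097), and passed only without Vec replicate 4 (-0.31, adjusted p = 0.0201, range 0.0201 to 0.281). For Pcx the log2 fold change was -0.25 (adjusted p = 0.187). Fbp2 was counted 7, 3, 5, 3 and 3 times in shRNA libraries, 21 counts in all against 17, which gives a ratio of 1.15 with an interval from 0.578 to 2.32. In the same comparison 4 of 10 pericentral markers were lower and none of 9 periportal ones passed, the pericentral sum being 6655 to 9035 CPM in shRNA mice. Of 9 hepatocyte markers 1 was lower, Serpina1a (-0.46). Of other cell types, 3 of 8 endothelial markers (Kdr, Stab2 and Clec4g) were higher. Lower were Col1a1 (-1.12), 1 of 8 stellate cell markers, and Cd68 (-0.72), 1 of 8 macrophage markers, while the other 7 of each list did not pass. Car3 (-1.31), 1 of 2 adipocyte markers tested, was lower too. Of 4 clock genes tested from the first list 2 were higher, Arntl (log2 fold change 1.10) and Cry1 (0.52). Of 9 from the second list 2 were lower, Dbp (-1.34) and Nr1d1 (-1.07), and 7 did not pass. The part of these markers in the levels of Fbp1, Pygl, Ppp1r3b and Ppp1r3c was not tested.

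**Figure D3:**
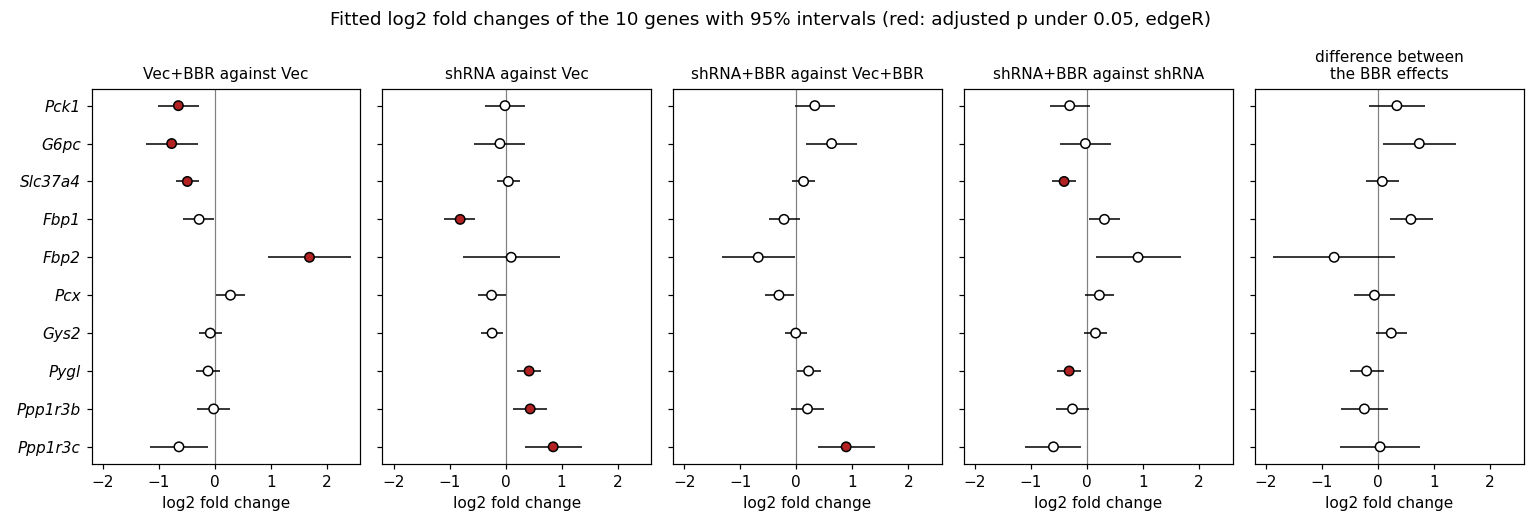
Fitted log2 fold change of each gene (points) with its 95% interval (lines) in the 4 comparisons and for the difference between the BBR effects, red where the adjusted p was under 0.05. Pck1, G6pc and Slc37a4 lie left of 0 in Vec+BBR against Vec, and none of the 10 points is red for the difference.

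Knockdown of PPARγ under BBR, shRNA+BBR against Vec+BBR, asks what the knockdown changes in treated mice. Ppp1r3c was the only one of the 10 past the threshold, higher by 85.3%, where 8.13% of all genes were called, 3.31% higher and 4.82% lower. Its values were 44.6, 36.2, 32.7, 47.9 and 50.3 CPM in shRNA+BBR mice, and all lay above the highest Vec+BBR mouse, at 25.9 CPM. Such a separation was found for 8.48% of all genes. The log2 fold change was 0.89 (standard error 0.25, adjusted p = 0.0286), and it missed the threshold without Vec+BBR replicate 2, 3 or 4 and without shRNA+BBR replicate 4 or 5 (adjusted p from 0.0024 to 0.0722 over the alternatives). G6pc had 396, 548, 748, 667 and 661 CPM in shRNA+BBR mice. Mouse 1 lay within the Vec+BBR range and the other 4 above it. The log2 fold change of G6pc was 0.63 (standard error 0.22, adjusted p = 0.0783), with a call under the replicate block (0.0274), with DESeq2 (0.0379) and without shRNA+BBR replicate 1 (0.0428), in a range from 0.0274 to 0.183.

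Pck1 had 2531, 2887, 2352, 2470 and 3883 CPM in shRNA+BBR mice. Mouse 5 stood above the others, and mice 1, 3 and 4 lay within the Vec+BBR range. Its log2 fold change was 0.33 (adjusted p = 0.239), and for Slc37a4 it was 0.13 (adjusted p = 0.473). Fbp1, Fbp2 and Pcx had -0.22, -0.68 and -0.31, with adjusted p of 0.322, 0.187 and 0.12. For Gys2, Pygl and Ppp1r3b the 95% intervals ran from -0.21 to 0.19, from 0.01 to 0.44 and from -0.10 to 0.50. The median log2 fold change over the 10 genes was 0.16, against 0.00 over all genes. Of 4 clock genes tested from the first list Arntl (1.57), Cry1 (1.09) and Nfil3 (0.64) were higher in this comparison. Of 9 from the second list Dbp (-1.35) and Nr1d1 (-1.67) were lower. Of other markers, 2 of 9 periportal ones, Sds and Ass1, and 1 of 10 pericentral ones, Slc22a3, were higher. The part of these markers in the levels of Ppp1r3c and G6pc was not tested.

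BBR against vehicle in mice with PPARγ knockdown, shRNA+BBR against shRNA, asks which drug effects are seen with the receptor reduced. Slc37a4 and Pygl were lower, by 24.7% and 20%, where 15.7% of all genes were called, 7.28% lower and 8.37% higher. Slc37a4 had 353, 362, 329, 339 and 404 CPM in shRNA mice and 281, 272, 255, 260 and 278 CPM in shRNA+BBR mice. The groups were clearly apart, as for 11.4% of all genes, and Slc37a4 was alone in this among the 10. A difference of -0.41 on the log2 scale (standard error 0.10, adjusted p = 0.0139) was past the threshold in all 17 alternatives (adjusted p from 0.00185 to 0.0439). Pygl had 495, 354, 392, 465 and 461 CPM in shRNA+BBR mice, of which mouse 1 reached into the shRNA range. The log2 fold change of Pygl was -0.32 (standard error 0.10, adjusted p = 0.0409), and 9 of 17 alternatives lost the call (adjusted p from 0.0163 to 0.111), among them those without shRNA replicate 1, 2, 4 or 5 and without shRNA+BBR replicate 2, 3 or 4.

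Pck1 had 2521, 3589, 4062, 3693 and 3587 CPM in shRNA mice. All but mouse 1 lay above 4 of the 5 shRNA+BBR mice. The log2 fold change was -0.31 (adjusted p = 0.217). G6pc had 373, 537, 529, 725 and 918 CPM in shRNA mice, the widest spread of G6pc in any group (coefficient of variation 34%), and the groups overlapped throughout (-0.03, 95% interval -0.49 to 0.43, adjusted p = 0.942). Fbp1 had 1235, 905, 1372, 1132 and 1090 CPM in shRNA+BBR mice, with a log2 fold change of 0.31 (adjusted p = 0.106). Fbp2 was counted 10, 8, 9, 9 and 3 times, 39 counts against 21 (ratio 1.89, interval 1.09 to 3.39), and passed only without shRNA+BBR replicate 5 (log2 fold change 1.10, adjusted p = 0.0325, range 0.0325 to 0.183). Ppp1r3c had a log2 fold change of -0.60 (adjusted p = 0.0891) and passed only without shRNA replicate 2 (-0.78, adjusted p = 0.0288, range 0.0288 to 0.269). The periportal sum was 11817 to 13622 CPM in shRNA and 7935 to 11504 CPM in shRNA+BBR mice, with 2 of its 9 genes lower, while 5 of 8 stellate cell markers were higher. Of 9 hepatocyte markers Serpina1a (-0.50) and Cps1 (-0.87) were lower. Of 9 clock genes from the second list Per1 (-0.57), Per3 (-0.54) and Tef (-0.46) were lower, and of 4 tested from the first list Clock (0.49) was higher. Of 8 endothelial markers Kdr (-0.42) and Stab2 (-0.51) were lower and Lyve1 (0.78) higher. Cd68 (0.88), 1 of 8 macrophage markers, and Spp1 (0.92), 1 of 5 cholangiocyte markers tested, were higher. So were Cfd (5.28) and Car3 (0.76), the 2 adipocyte markers tested of 6 listed. Cfd lay near or under the floor in shRNA mice (0 to 0.228 CPM), so the size of its fold change is uncertain. The part of these shifts in the levels of Slc37a4 and Pygl was not tested. Over the 10 genes the median was -0.14, against 0.01 over all genes.

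Whether BBR acted differently with and without knockdown was tested as an interaction in the same fit, since passing in one setting and not in the other does not show a difference. None of the 10 genes passed with edgeR, where 18 of all 12342 genes did (0.146%). None passed with DESeq2, which called 183 of all genes higher and 147 lower, nor with limma-voom, which called 5 higher and 6 lower. At an unadjusted p under 0.05 in edgeR there were 2 of the 10, where 18.5% of all genes reached that level. G6pc differed by 0.74 on the log2 scale (95% interval 0.09 to 1.39, unadjusted p = 0.0282, adjusted p = 0.219), its BBR effects being -0.77 in Vec and -0.03 in shRNA mice. Fbp1 differed by 0.59 (95% interval 0.21 to 0.98, unadjusted p = 0.00439, adjusted p = 0.121), its effects being -0.28 and 0.31. For Pck1 the difference was 0.34 (95% interval -0.16 to 0.85) and for Slc37a4 it was 0.08 (-0.22 to 0.37). Ppp1r3c, with 0.04, had the interval -0.67 to 0.75. The comparisons named above share groups of mice, so their fold changes are not independent of each other.

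Other genes of the pathway were taken from 5 lists with 96 genes, of which 93 were tested. With BBR in Vec mice 9 were higher and 10 lower, where 7.58% and 7.88% of all genes were called, and the median log2 fold change was 0.01. Genes that feed carbon into gluconeogenesis made up most of the lower ones, 6 of 23 being lower and 1 higher. They included the aspartate aminotransferase Got1 (-1.78), the tyrosine aminotransferase Tat (-1.18), the serine dehydratase Sds (-0.90) and the mitochondrial carbonic anhydrase Car5a (-0.56), while the dicarboxylate carrier Slc25a10 was higher (0.45). Of 29 regulators 2 were lower, Klf15 (-0.61), a transcription factor of amino acid catabolism, and the kinase Dyrk1a (-0.32). Among 24 tested glycogen genes 6 were higher, led by the brain-type phosphorylase Pygb (0.78), Pgm2 (0.64), the phosphorylase kinase subunit Phkb (0.59) and Stbd1 (0.58), and Phkg2 (-0.45) and Pgm1 (-0.28) were lower. Of 8 reversible enzymes 1 was higher, the aldolase Aldoa (0.53), and of 9 opposing or bifunctional enzymes 1, the phosphofructokinase Pfkl (0.52).

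With knockdown in vehicle mice 4 of the 93 were higher and 11 lower, against 5.28% and 7.91% of all genes. The mitochondrial isoform Pck2 was higher (0.87), and the glycerol channel Aqp9 (-0.78), Slc25a10 (-0.50) and the lactate dehydrogenase Ldha (-0.45) were lower. The glucagon receptor Gcgr (-0.46) and Cebpa (-0.45) were lower and the factor Onecut1 higher (1.27). Of the glycogen list Ppp1r3g (-1.64), another phosphatase targeting subunit, Gsk3a and Gsk3b (-0.34 each), kinases that inhibit glycogen synthase, and Gaa (-0.33), the lysosomal glucosidase, were lower, and Pgm2 (0.51) was higher. The triose phosphate isomerase Tpi1 (-0.32) and the pyruvate dehydrogenase kinase Pdk2 (-0.72) were lower and the glucose transporter Slc2a2 higher (0.27). The calls of Slc2a2 (edgeR adjusted p = 0.0429), Pgm2 (0.0488) and Ppp1r3g (0.0362) were lost in 10, 11 and 8 of 17 alternatives, whereas Pdk2 kept its call in all 17.

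Under BBR, 2 of the 93 were higher with knockdown and 6 lower, against 3.31% and 4.82% of all genes, a share close to the background. Sds (1.01) and the malate dehydrogenase Mdh2 (0.40) were higher. Aqp9 (-0.59), Pdk2 (-0.41) and Gcgr (-0.34) were lower, and so were 3 of 24 glycogen genes, among them the phosphorylase kinase subunits Phkb (-0.39) and Phka2 (-0.31). With BBR in shRNA mice 8 were higher and 8 lower, against 8.37% and 7.28% of all genes, again close to the background. Of the reversible enzymes 4 of 8 were higher, namely Gpi1 (0.61), Aldoa (0.52), Gapdh (0.47) and Eno1 (0.43), as were the glycerol kinase Gk (0.56), Slc25a10 (0.49), Ldha (0.36) and Pfkl (0.47). Of the regulators 4 were lower, among them Onecut1 (-0.88), Crtc2 (-0.75), a coactivator of the cAMP response, and Foxo3 (-0.42), as were the alanine aminotransferase Gpt (-0.44), Slc25a13 (-0.39) and Slc2a2 (-0.26). None of the 93 passed for the difference between the BBR effects in edgeR, and up to 2 did under the alternatives. These numbers moved between analyses, from 10 to 27 genes for BBR in Vec mice and from 4 to 22 for BBR in shRNA mice. They ran from 9 to 19 for knockdown in vehicle mice and from 3 to 12 for knockdown under BBR. Of 2284 refitted fold changes of the called pathway and marker genes and of Pparg, 387 lost the call.

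**Figure D4:**
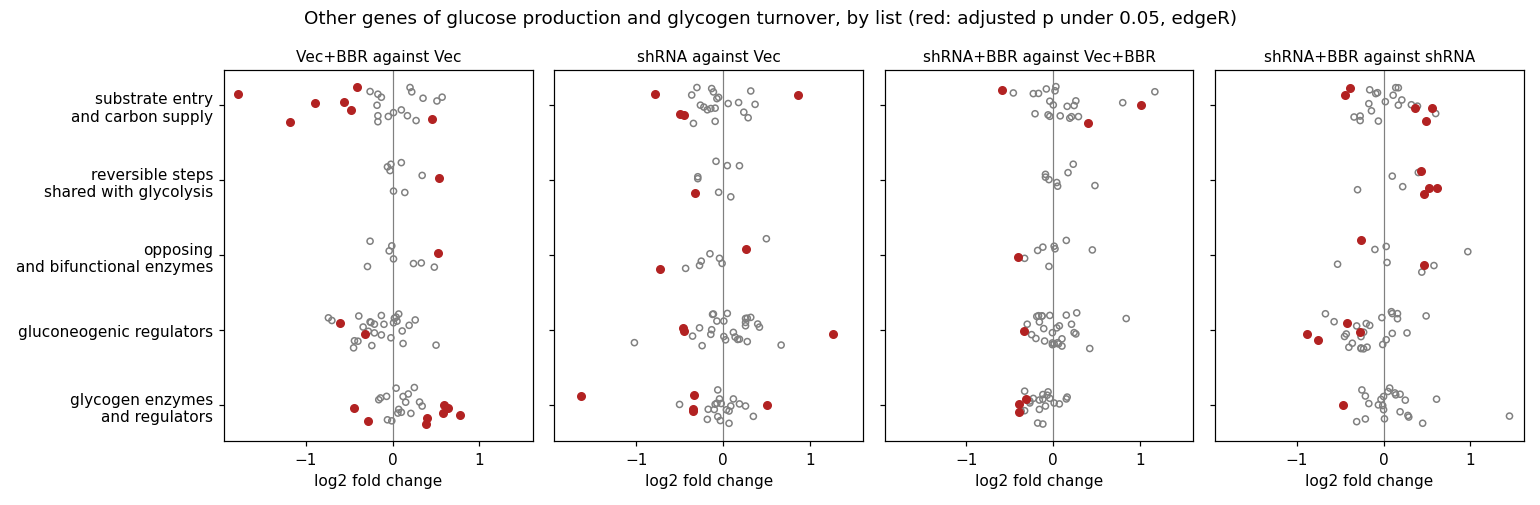
Fitted log2 fold changes of the 93 other pathway genes in the 4 comparisons, by list, with each point 1 gene, red where the adjusted p was under 0.05 and vertical position within a list without meaning. In Vec+BBR against Vec the carbon supply genes reach down to -1.78 (Got1).

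Covariation among mice of the same group was examined after group means were removed from log2 CPM. Of the 45 pairs of the 10 genes, none had an adjusted p under 0.05 for Pearson's r or Spearman's rho (100000 permutations within groups, n = 20 mice), while 9 had an unadjusted p under 0.05 for r. The targeting subunits Ppp1r3b and Ppp1r3c had r = 0.58 (permutation p = 0.00421, adjusted 0.118) and rho = 0.55 (p = 0.0141, adjusted 0.169), and r = 0.60 without the 2 mice farthest from the median. Pygl and Ppp1r3b had r = 0.60 (permutation p = 0.00788, adjusted 0.118) and rho = 0.68 (p = 0.0023, adjusted 0.103), with r = 0.58 without the 2 farthest mice. Pck1 and Pcx had r = -0.60 (permutation p = 0.0179, adjusted 0.161) and rho = -0.54 (p = 0.0294, adjusted 0.189), and r = -0.53 without the 2 farthest mice. The largest r in size was that of Pck1 and Fbp2, -0.64 (permutation p = 0.00656, adjusted 0.118), with rho = -0.53 (p = 0.0216, adjusted 0.189). It was -0.51 without the 2 farthest mice, and Fbp2 had few counts. The other pairs with an unadjusted p under 0.05 are not described.

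Among 9795 genes with a mean count of at least 50, those with the highest group-centred Pearson r were listed for 4 of the genes, as a description over 20 mice that share libraries and depth. For Pck1 they were Mia3 (r = 0.88), Aass (0.86), which degrades lysine, and Dmxl2 (0.85). G6pc was followed most closely by Slc25a25 (0.83), a mitochondrial adenine nucleotide carrier, Tob2 (0.78) and Sik1 (0.76), a kinase induced by cAMP. For Gys2 they were Tomm22 (0.89), the ketohexokinase Khk (0.86) and Tmem14c (0.84), and for Ppp1r3c Clpx (0.82), Zbtb21 (0.80) and Fermt1 (0.77).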

How the data were processed

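Liver polyadenylated RNA of 20 mice (4 groups of 5) was sequenced on an Illumina NovaSeq instrument. Per the file headers, each deposited table pairs the expected count of a gene with its FPKM. The expected count is an estimated number of reads per gene, not normalized, and the deposited FPKM is scaled by the authors for transcript length and library size. The submitters' processing notes name the build mm10, and the aligner, counting program and annotation are not given in the sources used here. Strand use in counting is not stated, and Pcx overlaps Lrfn4 (mean count 6.6) on the opposite strand.

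Counts were rounded, filtered with filterByExpr (minimum count 10, minimum total 15), scaled by TMM (factors 0.873 to 1.14) and fitted in edgeR 4.0.16 (R 4.3.3) with a mean for each group, the quasi-likelihood test and Benjamini-Hochberg adjustment over 12342 genes at 0.05. Benjamini-Hochberg values are called adjusted p. The biological coefficient of variation was 0.177. Intervals of fold changes are 95%. CPM are TMM-scaled, and FPKM was used for levels and to compare scalings, with no test. Correlations used log2(CPM + 1). The script for the tests was checked on simulated counts. Groups came from the labels, and each library was 1 mouse. No 2 libraries of a group were alike within sampling noise (lowest chi-square per gene 15.1 over 40 pairs). Aldoa has more than 1 entry, and the one with the most counts was used. Gene positions were taken from GENCODE M21, and promoters from RefSeq (GRCm38.p6).

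The 10 genes and all gene lists were chosen with earlier results of these data known. All 10 are named in every comparison, and of the other pathway genes those with an adjusted p under 0.05, at most the 4 largest increases and 4 largest decreases per list and comparison. For Pck1, G6pc, Gys2 and Ppp1r3c the 3 most similar genes (mean count at least 50) are named too. Some genes of the lists that this rule would name are not reported here. Alternatives were RLE scaling, no filter, at least 10 counts in every library, a fit of the 2 groups alone, a replicate block, DESeq2 1.42.0, limma-voom (limma 3.58.1), and each mouse left out in turn. No batch is named in the labels. The number of columns of per-sample values not used was 0.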

Additional observations from a re-analysis of the deposited data

How the results depend on the processing

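The number of the 10 genes past the threshold for BBR in Vec mice was 4 and lay between 3 and 5 with each mouse left out. Fbp2 was among the 4, although it passed the filter on low counts only through the Vec+BBR mice. For knockdown in vehicle mice it fell from 4 to 2 in a fit of the 2 groups alone and lay between 2 and 4 with a mouse left out. For knockdown under BBR it rose from 1 to 2 with DESeq2 and with the replicate block, and lay between 0 and 2 with a mouse left out. For BBR in shRNA mice it fell from 2 to 1 without the filter and in a fit of the 2 groups alone, and lay between 1 and 3 with a mouse left out. For the difference between the BBR effects it was 0 in every analysis. Fbp2 has no value where at least 10 counts are required in every library. Leaving out a mouse or fitting 2 groups uses fewer samples. The cause of the other shifts was not tested. Of 933 refitted fold changes of the 10 genes, 853 kept direction and side of the threshold, 32 lost the call, 10 gained it and 38 changed direction, the last for fold changes of at most 0.10 in size.

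Those that changed direction were Pck1 with knockdown in vehicle mice (0.00 with the replicate block, 0.01 with limma-voom, and -0.11 to 0.09 over mice left out), G6pc with BBR in shRNA mice (0.01 with the block and with limma-voom, and -0.17 to 0.16 over mice left out), and Gys2 with knockdown under BBR (0.00 with RLE scaling and DESeq2, 0.01 with at least 10 counts in every library and with the 2 groups alone, and -0.03 to 0.03 over mice left out). With mice left out alone, Ppp1r3b with BBR in Vec mice ran from -0.12 to 0.11, and for knockdown in vehicle mice G6pc ran from -0.29 to 0.03, Slc37a4 from -0.01 to 0.13 and Fbp2 from -0.16 to 0.38. For the difference between the BBR effects Slc37a4 ran from 0.00 to 0.15, Pcx from -0.14 to 0.03 and Ppp1r3c from -0.14 to 0.25. Without the 2 farthest mice, r changed sign for Pck1 and G6pc (-0.08), Pck1 and Slc37a4 (-0.03), G6pc and Pcx (-0.02), G6pc and Pygl (0.18), Slc37a4 and Ppp1r3b (0.06), Slc37a4 and Ppp1r3c (0.02), Fbp1 and Fbp2 (-0.03), Fbp1 and Ppp1r3b (-0.02), and Pcx and Ppp1r3c (-0.03).

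Replicate numbers were not treated as pairs in the main fit, and the correlations do not settle whether they pair mice. Correlations of same-numbered mice after removal of group means exceeded 0.1 in 2 of 5 numbers between Vec and Vec+BBR, in 3 of 5 between shRNA and shRNA+BBR and in 0 of 5 in the other comparisons, and 3 of 5 shRNA mice correlated best with their own number in shRNA+BBR, 1, 0 and 1 of 5 in BBR in Vec mice, knockdown in vehicle mice and knockdown under BBR. With the replicate block 1 more gene passed for BBR in Vec mice (5 in all). Fbp2, at 2 to 16 counts a library, is the gene limited by depth.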
